A study of Mus musculus with 36 samples.

Results

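Transcripts of 33 genes that supply reducing power or remove oxidants were followed in blood of Townes sickle cell mice given a miR-29b microRNA or a scrambled control. The set was a chosen list of antioxidant genes, of targets of the transcription factor NRF2, and of enzymes of the pentose phosphate pathway. It was chosen with earlier results of these data known. It held 33 of the 16823 genes of the count table, and 32 of the 33 passed the filter on low counts that left 11964 genes for testing. Townes mice are a humanised model of sickle cell disease in which human globin genes stand in place of the mouse ones. The 36 libraries fell into 12 groups of 3: MIR29B (a cholesterol-modified miR-29b) at 3 or 2 mg/kg at weeks 0, 2 and 4, and scrambled control at 3 or 2 mg/kg at the same weeks. All mice were of the Townes strain, and both agents were given by mini-osmotic pump. RNA came from peripheral blood, with the cell type labelled as erythrocytes, and globin mRNA was depleted before sequencing. The labels do not give the age of the mice, do not tie libraries of different weeks to the same mouse, and do not say how the sampling at week 0 was timed relative to the pump. For week 0, "MIR29B" therefore names the arm. The study asked how dosing with MIR29B to induce fetal haemoglobin affects gene expression.

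As background, NRF2 (gene Nfe2l2) is a transcription factor that is held back by KEAP1 and, once released, binds antioxidant response elements beside genes for glutathione synthesis, quinone reduction and heme breakdown. Glutathione and thioredoxin pass electrons to peroxiredoxins and glutathione peroxidases, which remove peroxides, and the electrons come from NADPH made largely by the pentose phosphate pathway. Mature red cells normally have no mitochondria and depend on that pathway for NADPH, and sickle red cells are known to carry a raised load of heme-derived oxidants. Neutrophils use the same NADPH to make superoxide.

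The promoters are shown because the list was chosen in part as NRF2 targets, and NRF2 binds the antioxidant response element. A higher share of members than of all genes with the element is therefore not independent of that choice. The core letters TGACNNNGC, read on either strand, were found in the window from 250 bases before to 50 bases after a RefSeq start (build GRCm38.p6) of 11 of 29 members with a window, or 37.9%. Of the 29, 7 had several windows, from different listed starts, and a match in any of them was counted. The same letters were found for 16.5% of 13146 genes of the count table with a window, and in 12.4% of all 32851 windows. The 11 members were Nfe2l2, Blvra, Srxn1, Gclm, Prdx1, Pgd, Mgst1, Me1, Txnrd1, Sod1 and G6pdx. The 4 members without a window were Hmox1, Gclc, Gsr and Prdx6. At week 2 against week 0, 5 of the 10 tested members with a match were called higher, as were 5 of the 18 members with a window and no match (Tkt, Slc7a11, Gss, Glrx and Prdx5), against 8.73% of all genes. The match in Pgd lay at a second start, and the window at its upstream start had none. Txnrd1 had a match in 1 of 3 windows and Mgst1 in 1 of 2. The sequences of 4 called members follow 5′ to 3′ on the strand of the gene, with the match in capitals. The first 3 are the 250 bases upstream of the start, at chrX:74428881-74429130 for G6pdx (minus strand), chr6:138140277-138140526 for Mgst1 (plus strand) and chr10:82858956-82859205 for Txnrd1 (plus strand). The last is a 29-base stretch around a match past the start, at chr2:152105542-152105570 for Srxn1 (plus strand). A match describes these letters and is not a binding site.
G6pdx: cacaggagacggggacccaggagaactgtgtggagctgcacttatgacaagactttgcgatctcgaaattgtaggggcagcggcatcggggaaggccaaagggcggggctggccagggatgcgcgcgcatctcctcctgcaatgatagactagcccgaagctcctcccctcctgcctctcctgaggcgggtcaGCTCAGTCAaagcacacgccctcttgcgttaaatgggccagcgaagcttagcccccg
Mgst1: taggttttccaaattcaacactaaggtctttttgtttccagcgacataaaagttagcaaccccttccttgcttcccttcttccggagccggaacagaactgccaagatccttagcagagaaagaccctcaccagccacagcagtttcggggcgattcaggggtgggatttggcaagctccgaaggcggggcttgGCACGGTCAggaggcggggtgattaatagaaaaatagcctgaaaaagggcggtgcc
Txnrd1: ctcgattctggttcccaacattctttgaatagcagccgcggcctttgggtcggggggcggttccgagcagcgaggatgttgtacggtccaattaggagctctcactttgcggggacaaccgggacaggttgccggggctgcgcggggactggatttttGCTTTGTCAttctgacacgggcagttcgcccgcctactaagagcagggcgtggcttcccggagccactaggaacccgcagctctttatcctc
Srxn1: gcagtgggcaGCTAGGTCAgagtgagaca

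The mature miR-29b-3p, the guide strand of the microRNA family that was dosed, is shown with its seed (bases 2 to 8) in capitals, from RefSeq. Sites matching the seed, TGGTGCT, were found in the 3′ UTR of 2 of 33 members, or 6.1%, against 17.9% of 15116 genes with a 3′ UTR in GENCODE M21 (GRCm38). The 2 sites, in capitals, lie at base 1964 of 2184 in the 3′ UTR of Srxn1 and at base 4174 of 7364 in that of Slc7a11. The longer letters TGGTGCTA were found in 0 of 33 members and in 3.7% of the genes.
miR-29b-3p: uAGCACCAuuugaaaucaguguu
Srxn1 site: aagatgcatcgTGGTGCTggattgattct
Slc7a11 site: gcactctgtgtTGGTGCTgatagaatgca

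Library totals over all transcripts were 10.7 to 45.65 M counts, with a median of 29.1 M. Levels are given as CPM, a count scaled to a smaller total. That total covers the highest-total transcript of each gene that passed the filter on low counts, and was adjusted by edgeR's TMM method. Over the 20 erythroid genes used to check the label, the summed level was 73052 to 176259 CPM, so red-cell transcripts were abundant in every library. Most of this sum was Alas2, with a mean of 102990 CPM against 127102 CPM for the sum over all 36 libraries. Markers of other blood cells were also counted: the 24 neutrophil markers summed to 248 to 3431 CPM per library. The early neutrophil granule genes Elane and Mpo were at 0 in 31 and 24 of 36 libraries. One library stood apart from the others, scrambled 3 mg/kg week 2 replicate 1. It lay at 79.2 on the first principal component of log-scaled CPM, taken over genes above a minimum CPM. All but 2 libraries lay between -45.6 and 47.3 on it. MIR29B 2 mg/kg week 0 replicate 2 was the next at 61.4. Results that rest on the first are given with and without it. Nothing in the labels says that the 3 samples of a group came from separate mice, so p-values measure the spread between samples, which may be technical.

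Per length of transcript, levels differed widely among the members. Gpx1, the main glutathione peroxidase of red cells, had the highest level, 11812 ± 4659 CPM per kilobase (SD, n = 36), with 4346 to 27515 CPM per kilobase over the libraries. Prdx2, the abundant red-cell peroxiredoxin, followed at 2218 ± 1762, and Blvrb, which reduces biliverdin and flavins in red cells, at 2070 ± 1049 CPM per kilobase. Cat, which encodes catalase, had 770 ± 287 and Taldo1, a transaldolase of the non-oxidative pentose phosphate branch, 738 ± 270 CPM per kilobase. The ranges of Prdx2 and Blvrb overlapped, as did those of Cat and Taldo1. At the other end stood Nfe2l2 with 3.61 ± 1.34, Txnrd1 with 2.79 ± 1.49, Gclc with 2.73 ± 1.97, Blvra with 1.4 ± 0.806 and Slc7a11 with 0.389 ± 0.465 CPM per kilobase. Me1, the cytosolic malic enzyme, had 10 counts in all over the 36 libraries and was not tested. Keap1 and Prdx4 had no transcript length and were left out of this order. The subunits of the enzyme that begins glutathione synthesis differed in level, with 172 ± 59.5 CPM per kilobase for the modifier Gclm and 2.73 ± 1.97 for the catalytic Gclc.

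**Figure D1:**
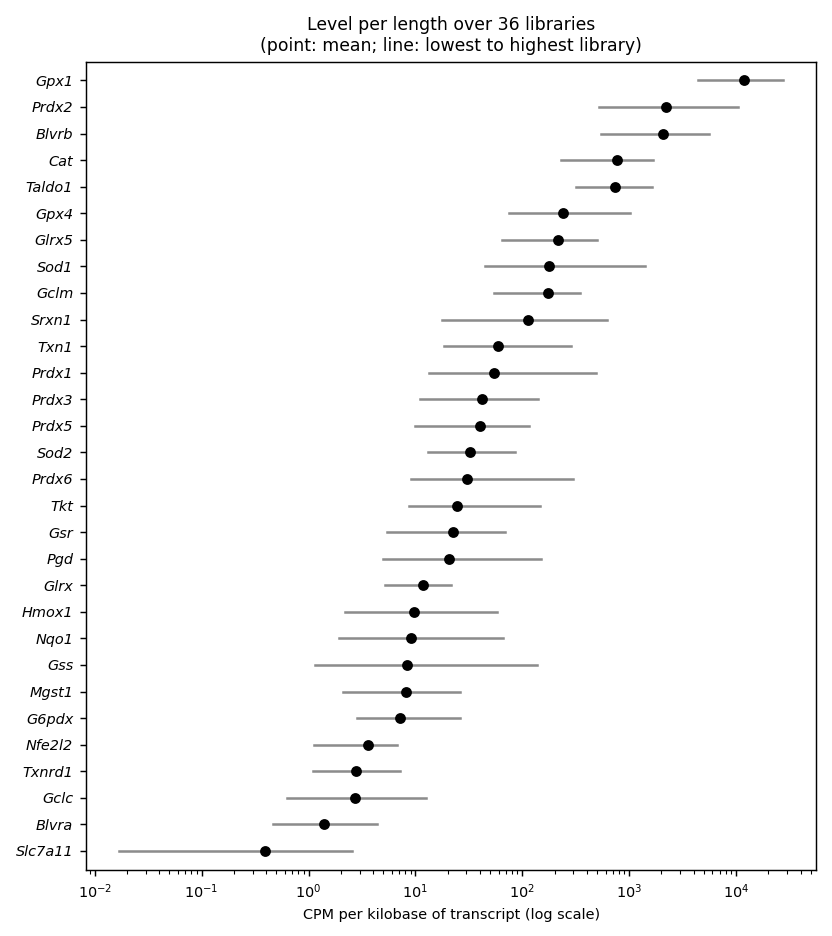
Mean level per kilobase of transcript (points, log axis) and the range from the lowest to the highest of 36 libraries (lines) for 30 tested members with a transcript length. Gpx1 stands at 11812 CPM per kilobase and Slc7a11 at 0.389.

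At week 2 the set shifted upward against week 0. With arms and doses averaged, 13 of 32 members (40.6%) were higher at week 2 and 0 were lower at an adjusted p under 0.05 in edgeR's quasi-likelihood test. Over all 11964 genes tested, 8.73% were called higher and 7.22% lower. Because the members were chosen with earlier results of these data known, the gap between these shares is not an independent test of the set. The log2 fold change was above 0 for 28 of 32 members with a median of 0.54, against a median of -0.03 over all genes. With the slope of level on transcript length in each library as a covariate, the members' median was 0.20 and 13 were called. Whether that slope reflects RNA quality was not tested. The called members were 3 of 4 pentose phosphate enzymes (G6pdx, Pgd and Tkt), 4 of 6 genes of glutathione supply, reduction and transfer (Slc7a11, Gss, Gsr and Mgst1), 3 of 5 of the thioredoxin and glutaredoxin system (Txnrd1, Srxn1 and Glrx), 2 of 6 peroxiredoxins (Prdx5 and Prdx6) and Hmox1. Of catalase, the superoxide dismutases and the glutathione peroxidases, 0 of 5 were called. Without scrambled 3 mg/kg week 2 replicate 1, 9 of the 13 remained called, 19 of 32 members were above 0 and the median was 0.20. Slc7a11, Gss, Txnrd1 and Prdx6 lost their calls in that fit.

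**Figure D2:**
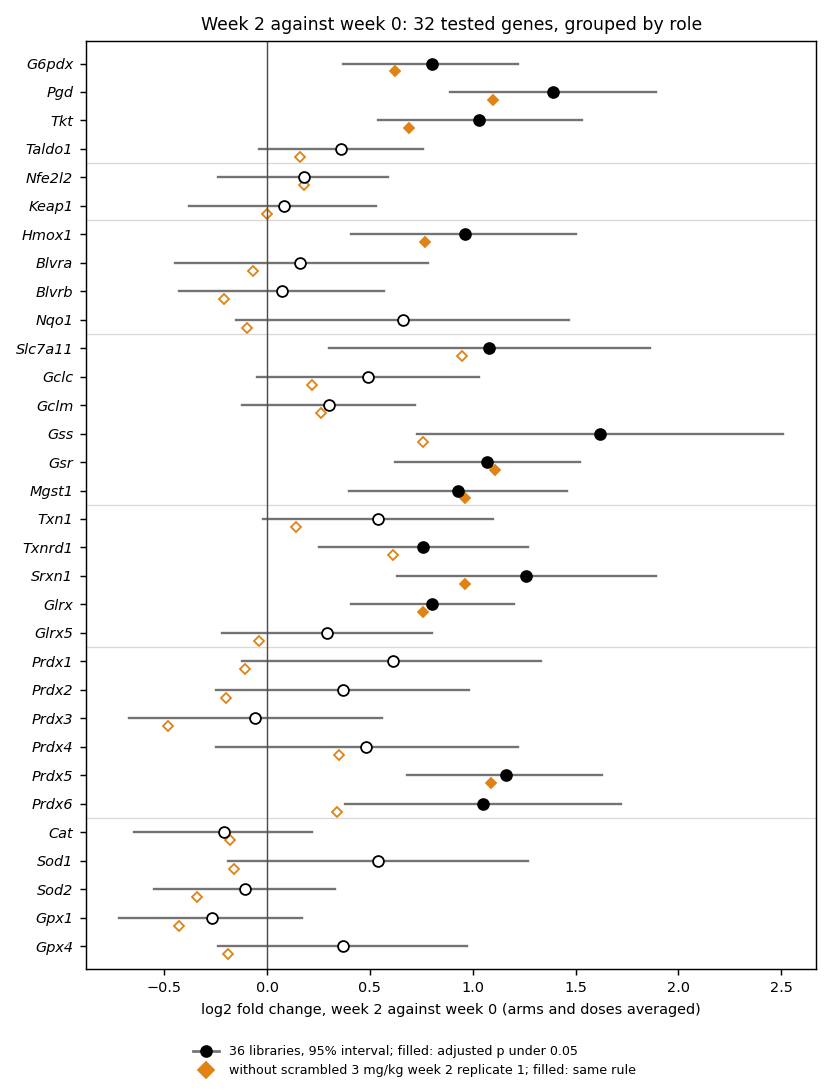
Log2 fold change at week 2 against week 0 for 32 members grouped by role, with 95% intervals over 36 libraries (circles) and the value without scrambled 3 mg/kg week 2 replicate 1 (diamonds). Filled symbols passed an adjusted p of 0.05: 13 circles and 9 diamonds.

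Of the 4 pentose phosphate enzymes, 3 rose at week 2. Pgd, the second NADPH-making enzyme of the pathway, had 31.5, 46.8 and 331 CPM at week 2 (lowest, median and highest of 12 libraries), against 11, 24.4 and 52.1 CPM at week 0. All 12 libraries of week 2 lay above the median of week 0, and 5 lay above its highest library. Its log2 fold change was 1.39 ± 0.25 (SE, edgeR adjusted p = 0.000249), and 1.10 ± 0.21 (adjusted p = 0.000515) without the library that stood apart. G6pdx, the first and rate-setting enzyme, had 13.3, 25.0 and 68.7 CPM at week 2, against 7.45, 14.9 and 19 CPM at week 0. It rose by 0.80 ± 0.21 on the log2 scale (edgeR adjusted p = 0.0085), with 7 of 12 libraries above the highest of week 0. Tkt, a transketolase that returns sugars to glycolysis, had 40.3, 94.9 and 467 CPM at week 2, against 27.8, 51.9 and 100 CPM at week 0. It rose by 1.03 ± 0.24 (edgeR adjusted p = 0.0039), and by 0.69 ± 0.19 (adjusted p = 0.0152) without the library that stood apart. Taldo1, on the same branch as Tkt, had a log2 fold change of 0.36 ± 0.20 and was not called (edgeR adjusted p = 0.215). Exons of G6pdx and Ikbkg overlap on opposite strands over 278 bases, and the strand setting of the counting is not given in the sources used here. Ikbkg had a median of 48.1 CPM at week 2 and 68.1 CPM at week 0.

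Among the glutathione genes, Gsr, the reductase that regenerates glutathione with NADPH, had the smallest p-value. It had 47.5, 67.3 and 183 CPM at week 2 (lowest, median and highest of 12), against 14.3, 36.6 and 95.3 CPM at week 0. It rose by 1.07 ± 0.22 (SE, edgeR adjusted p = 0.00114), and the call held in all 24 fits that left out 1 library. Mgst1, a membrane-bound glutathione transferase, had 3.72, 12.3 and 30.5 CPM at week 2, against 2.45, 5.39 and 17.7 CPM at week 0. It rose by 0.93 ± 0.26 (edgeR adjusted p = 0.0135). Gss, the second enzyme of glutathione synthesis, had 5.57, 12.7 and 272 CPM at week 2, against 2.31, 4.74 and 21.0 CPM at week 0. All 12 libraries of week 2 lay above the median of week 0, but its call rested on 1 library. Its estimate was 1.62 ± 0.44 (edgeR adjusted p = 0.0108), against 0.76 ± 0.34 (adjusted p = 0.129) without scrambled 3 mg/kg week 2 replicate 1. Slc7a11, the cystine importer that feeds glutathione synthesis, had 0.156, 2.60 and 8.02 CPM at week 2, against 0.286, 1.08 and 4.16 CPM at week 0. Its rise of 1.08 ± 0.38 (edgeR adjusted p = 0.0494) was lost in 16 of 24 fits that left out 1 library, where adjusted p ran from 0.0218 to 0.115. Gclc (0.49 ± 0.27) and Gclm (0.30 ± 0.21), which begin glutathione synthesis, were not called. Exons of Gss lie opposite exons of Acss2 over 163 bases, and Acss2 had a median of 2.66 CPM at week 2 and 2.51 CPM at week 0.

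In the thioredoxin and glutaredoxin system, Srxn1 had the largest fold change among those called. Srxn1, which reactivates over-oxidised peroxiredoxins, had 49.9, 394 and 1721 CPM at week 2 (lowest, median and highest of 12), against 97.4, 161 and 356 CPM at week 0. Its lowest library, of the scrambled arm, lay below all of week 0, while 8 of 12 lay above all of week 0. The log2 fold change was 1.26 ± 0.31 (SE, edgeR adjusted p = 0.00539), and 0.96 ± 0.28 (adjusted p = 0.0205) without the library that stood apart. Glrx, a cytosolic glutaredoxin, had 13.6, 20.8 and 28.8 CPM at week 2, against 6.99, 10.7 and 22.0 CPM at week 0. All 12 libraries lay above the median of week 0, with a log2 fold change of 0.80 ± 0.19 (edgeR adjusted p = 0.00454). Txnrd1, the NADPH-dependent thioredoxin reductase, had 2.95, 6.76 and 16.5 CPM at week 2, against 2.52, 3.92 and 6.14 CPM at week 0. Its rise of 0.76 ± 0.25 (edgeR adjusted p = 0.0353) was lost in 10 of 24 fits that left out 1 library, with adjusted p up to 0.0975. Txn1 (0.54 ± 0.27) and the mitochondrial Glrx5 (0.29 ± 0.25) were not called.

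The peroxiredoxins did not move as a block. Prdx5, found in mitochondria, peroxisomes and cytosol, had 22.8, 60.0 and 146 CPM at week 2 (lowest, median and highest of 12), against 12.6, 29.8 and 70.0 CPM at week 0. It rose by 1.16 ± 0.23 on the log2 scale (SE, edgeR adjusted p = 9e-04), and the call held in all 24 fits that left out 1 library. The Prdx5 transcript shares 360 bases with Trmt112 on the opposite strand. Trmt112 had a median of 6.41 CPM at week 2 and 4.65 CPM at week 0. Whether shared reads bear on the level of Prdx5 was not tested. Prdx6, the 1-cysteine peroxiredoxin with phospholipase activity, had 21.9, 70.1 and 710 CPM at week 2, against 26.5, 44.8 and 102 CPM at week 0. Its log2 fold change was 1.05 ± 0.33 (edgeR adjusted p = 0.0262), and 0.34 ± 0.22 (adjusted p = 0.334) without scrambled 3 mg/kg week 2 replicate 1. Leaving out that library also turned the estimates for Prdx1 to -0.11, against 0.61 with it, and for Prdx2 to -0.20, against 0.37 with it, neither called with or without it. Prdx3, the mitochondrial form, stood at -0.06 ± 0.30 and Prdx4, of the endoplasmic reticulum, at 0.48 ± 0.36.

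Hmox1, the inducible heme oxygenase and a classic NRF2 target, had 6.67, 16.7 and 91.1 CPM at week 2 (lowest, median and highest of 12), against 6.59, 8.99 and 20.4 CPM at week 0. In week 2, 11 of 12 libraries lay above the median of week 0. Hmox1 rose by 0.96 ± 0.27 (SE, edgeR adjusted p = 0.0133), and 0.77 ± 0.25 (adjusted p = 0.038) without the library that stood apart. The 2 biliverdin reductase genes were not called, Blvra at 0.16 ± 0.30 and Blvrb at 0.07 ± 0.25. Nqo1, the NRF2-driven quinone reductase, had a log2 fold change of 0.66 ± 0.40 over all libraries and -0.10 ± 0.32 without the library that stood apart. The NRF2 transcript was not called, with Nfe2l2 at 9.98 CPM in week 2 and 8.11 CPM in week 0 (medians of 12) and a log2 fold change of 0.18 ± 0.20. Keap1 had medians of 3.63 and 3.51 CPM in week 2 and week 0, with a log2 fold change of 0.08 ± 0.22. Cat (-0.21 ± 0.21), Sod2 (-0.11 ± 0.22) and Gpx1 (-0.27 ± 0.22) had estimates below 0 and were not called. Sod1 (0.54 ± 0.36) and Gpx4 (0.37 ± 0.30) had estimates above 0 that turned to -0.16 and -0.19 without the library that stood apart.

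**Figure D3:**
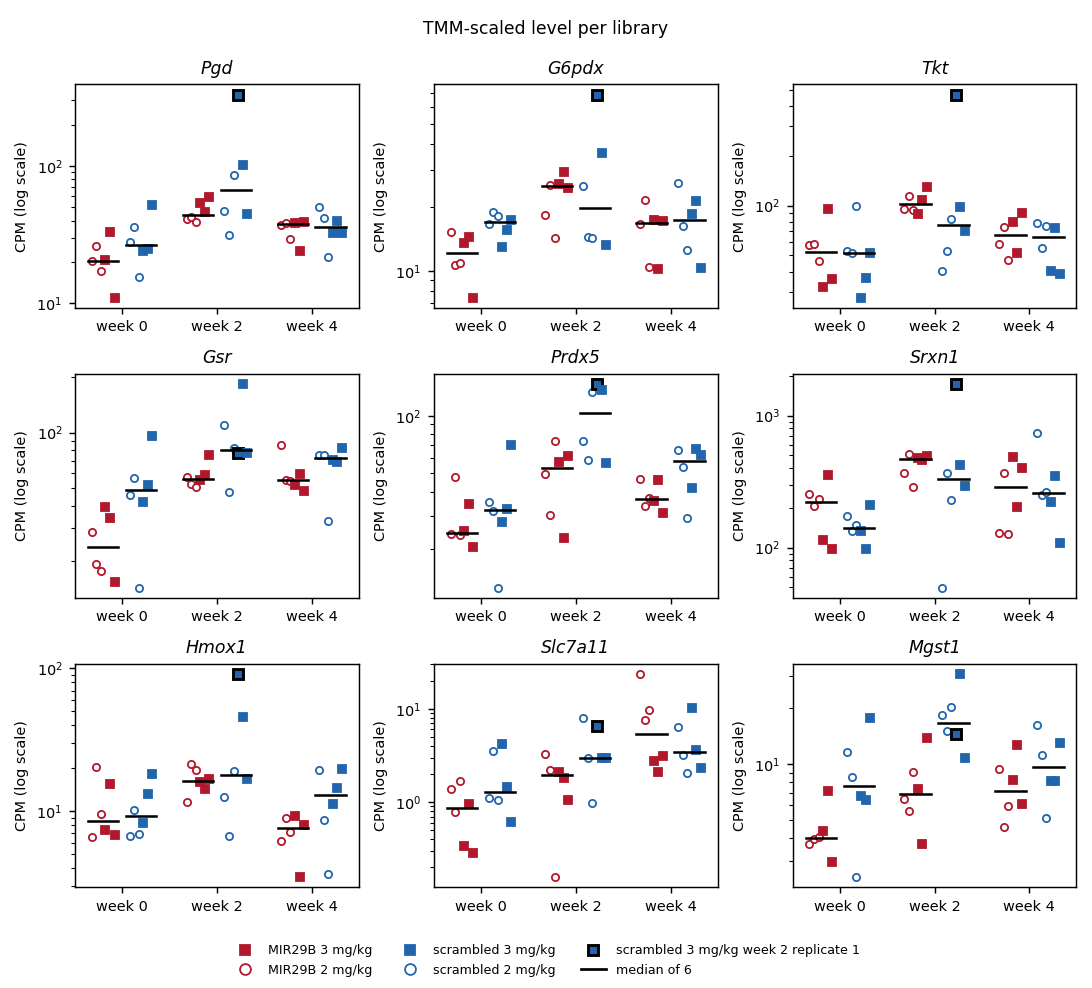
TMM-scaled level (CPM, log axis) of 9 called members in each of 36 libraries by week, MIR29B left of scrambled, with bars at the median of 6. Scrambled 3 mg/kg week 2 replicate 1, outlined in black, is the highest library for Pgd (331 CPM), G6pdx, Tkt, Prdx5, Srxn1 and Hmox1, and not for Gsr or Mgst1.

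Markers of neutrophils moved with the set. At week 2 against week 0, 18 of 22 tested neutrophil markers were higher and 0 lower, with a median log2 fold change of 1.49. Their 24 listed genes summed to 909, 1298 and 3431 CPM at week 2 (lowest, median and highest of 12), against 248, 568 and 1431 CPM at week 0. Monocyte and macrophage markers were higher for 3 of 18 and lower for 0, NK cell markers lower for 6 of 11 and higher for 0, and erythroid genes higher for 2 and lower for 3 of 20. Their part in the members' rise was not tested. In blood, fewer or more cells of a type and less or more RNA per cell cannot be told apart.

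**Figure D4:**
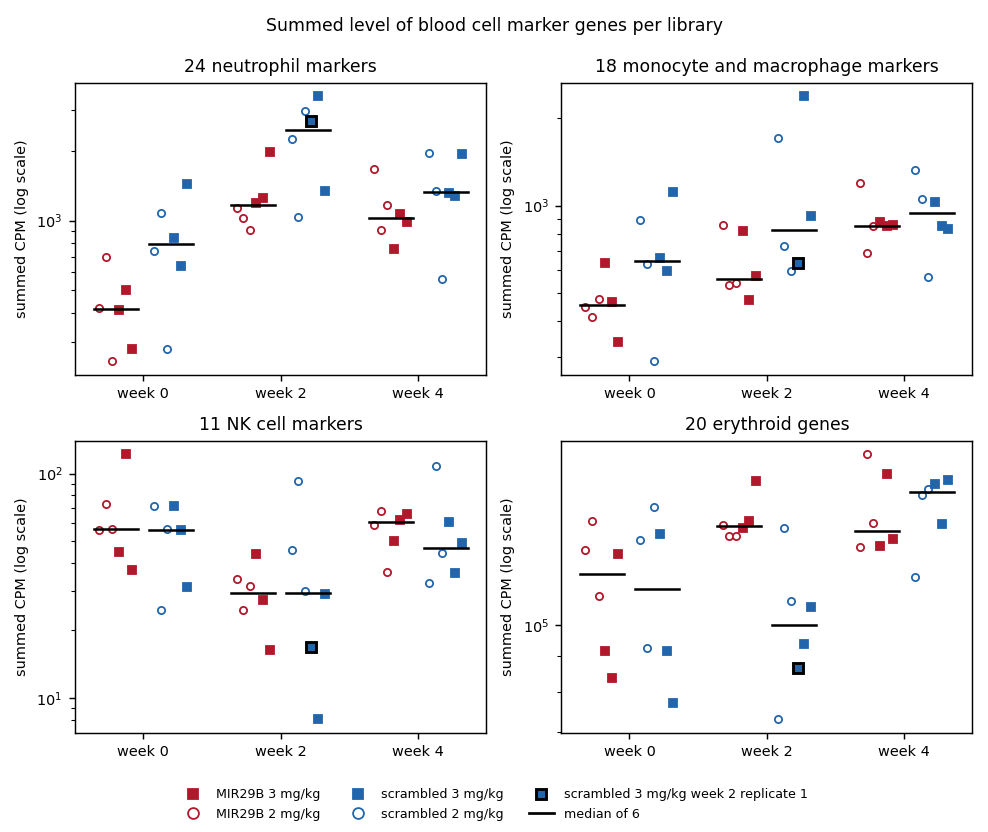
Summed level of marker genes (CPM, log axis) in each of 36 libraries by week, MIR29B left of scrambled, with bars at the median of 6. The neutrophil sum has medians of 1298 CPM at week 2 and 568 CPM at week 0 over 12 libraries each.

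Within the arms fewer members passed. In the MIR29B arm 2 of 32 were higher at week 2 than at week 0, against 3.44% of all genes. In the scrambled arm 4 of 32 were higher, against 2.11% of all genes. Pgd rose in both, by 1.12 ± 0.35 (SE, edgeR adjusted p = 0.0492) in the MIR29B arm and by 1.65 ± 0.35 (adjusted p = 0.0108) in the scrambled arm. The MIR29B value of Pgd was the weaker call and was lost in 11 of 12 fits that left out 1 library, although its 6 libraries of week 2 (39.1 to 59.4 CPM) did not overlap the 6 of week 0 (11 to 33.1 CPM). Gsr rose in the MIR29B arm by 1.19 ± 0.31 (edgeR adjusted p = 0.02), again with no overlap, at 50.2 to 75.9 CPM in week 2 and 15.3 to 39.1 CPM in week 0. The Gsr call was lost in 3 of 12 fits that left out 1 library, with adjusted p up to 0.0741. Groups without overlap in that direction were found for 3.13% of all genes tested. In the scrambled arm Prdx5 (1.56 ± 0.33, edgeR adjusted p = 0.0108), Hmox1 (1.32 ± 0.38, adjusted p = 0.0479) and Gss (2.39 ± 0.64, adjusted p = 0.0355) also rose. Hmox1 and Gss each lost the call in 7 of 12 fits that left out 1 library, where Gss ran from 0.68 to 2.66 with adjusted p up to 0.523, and Pgd and Prdx5 each lost it in 3 of 12. Without scrambled 3 mg/kg week 2 replicate 1, 1 of 32 was called in that arm and the median over the members was 0.11. The test of the difference between the arms in the change to week 2 called 0 of 32 members and 0 of 11964 genes, or 0% (4 members and 670 genes had an unadjusted p under 0.05, and DESeq2 called 0 of both). The differences ran from -1.62 for Blvra to 0.57.

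At week 4 fewer members were called. With arms averaged, 3 of 32 members were higher at week 4 than at week 0 and 0 were lower, against 4.23% higher and 1.92% lower of all genes. The median log2 fold change of the members was 0.03 with arms averaged, -0.29 in the MIR29B arm and 0.24 in the scrambled arm. In the MIR29B arm 5 members were higher and 4 lower at a p under 0.05 before adjustment. Of all 11964 genes tested, 1210 were higher and 829 lower by the same rule. Slc7a11 had 2.05, 3.42 and 23.5 CPM at week 4 (lowest, median and highest of 12), against 0.286, 1.08 and 4.16 CPM at week 0. All 12 libraries of week 4 lay above the median of week 0, and 5 lay above its highest. The 12 libraries of week 0 held 326 counts of Slc7a11 in all, against 1682 at week 4. The log2 fold change was 2.03 ± 0.39 (SE, edgeR adjusted p = 0.000821), and adjusted p stayed at 0.003 or below in all 24 fits that left out 1 library. Gsr had 32.9, 64.4 and 85.9 CPM at week 4 and a log2 fold change of 0.83 ± 0.22 (edgeR adjusted p = 0.0175). Txnrd1 had 2.52, 7.46 and 16.3 CPM at week 4, with 7 of 12 libraries above the highest of week 0, and rose by 0.86 ± 0.25 (edgeR adjusted p = 0.0333). The Txnrd1 call was lost in 10 of 24 fits that left out 1 library, with adjusted p up to 0.0859. Pgd (0.48 ± 0.24), Tkt (0.25 ± 0.24) and G6pdx (0.23 ± 0.21) were not called at week 4. Keap1 had a log2 fold change of -0.63 ± 0.23 (edgeR adjusted p = 0.0956). Neutrophil markers were higher for 7 of 22 and lower for 0 at week 4 (median 0.93), and monocyte and macrophage markers higher for 5 of 18 and lower for 0. The monocyte markers summed to a median of 853 CPM at week 4 and 536 CPM at week 0, and eosinophil and basophil markers to 37.5 CPM at week 4 and 15.6 CPM at week 0. The eosinophil and basophil sum rested largely on Hdc, with a mean of 22.1 CPM against 30.6 CPM for the sum over all 36 libraries. The part of these markers in the members' values was not tested. Week 0 libraries are shared by the comparisons of week 2 and week 4.

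The week 4 levels of Slc7a11 are given by dose. It had 2.75, 2.12 and 3.09 CPM at 3 mg/kg and 23.5, 7.52 and 9.61 CPM at 2 mg/kg in the MIR29B arm. The library at 23.5 CPM also had the highest eosinophil and basophil sum of all 36 (87.7 CPM) and the highest monocyte (1196 CPM) and neutrophil (1671 CPM) sums of its arm and week, whose part was not tested. Over all libraries the eosinophil and basophil sum rested largely on Hdc. The scrambled arm had 10.3, 3.61 and 2.33 CPM at 3 mg/kg and 6.38, 3.23 and 2.05 CPM at 2 mg/kg. In the MIR29B arm all 6 libraries of week 4 (2.12 to 23.5 CPM) lay above all 6 of week 0 (0.286 to 1.68 CPM), which was so for 2.93% of all genes tested. The week 0 libraries of that arm held 92 counts of Slc7a11 in all, and those of week 4 held 1162, so the starting level rests on few counts. The log2 fold change was 2.85 ± 0.57 (SE, edgeR adjusted p = 0.00218), and Gsr (1.21 ± 0.31, adjusted p = 0.0236) was the other of 2 members called there, against 2.64% of all genes. That Gsr call was lost in 4 of 12 fits that left out 1 library, with adjusted p up to 0.0996. In the scrambled arm 0 of 32 members were called at week 4, against 0.359% of all genes higher (2 members and 565 genes were higher before adjustment at 0.05, and DESeq2 called 0 members). The difference between the arms in the change to week 4 was 1.64 ± 0.76 for Slc7a11 (edgeR adjusted p = 0.781), and 0 of 32 members and 0% of genes were called (3 members and 719 genes had an unadjusted p under 0.05, and DESeq2 called 0 members). A stretch of 373 bases of the Slc7a11 transcript is 96.2% identical to Tuba1b, an abundant alpha-tubulin, and reads from it could be misassigned. Tuba1b had medians of 401 CPM at week 4 and 364 CPM at week 0, with 597 CPM at week 2, and in the MIR29B arm 391 CPM at week 4 and 425 CPM at week 0.

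Between week 4 and week 2 the estimates ran downward, with 28 of 32 members at or below 0 and a median of -0.47. With the length slope as a covariate the median was -0.13 and 0 members were called. Only Hmox1 was called lower and 0 members were called higher, against 0.368% lower and 0.669% higher of all genes. Hmox1 had 3.45, 8.85 and 19.8 CPM at week 4 (lowest, median and highest of 12), against 6.67, 16.7 and 91.1 CPM at week 2. Its log2 fold change was -1.11 ± 0.27 (SE, edgeR adjusted p = 0.0425), and the call was lost in 14 of 24 fits that left out 1 library. Without scrambled 3 mg/kg week 2 replicate 1 it was -0.93 ± 0.25 (adjusted p = 0.0971) and the members' median was -0.23. In the scrambled arm alone that library turned the members' median, which was 0.18 without it and -0.48 with it. Pgd was next, with a fold change of -0.90 ± 0.24 (edgeR adjusted p = 0.0552). Within the MIR29B arm, which does not hold that library, 7 of 32 members were lower in all 6 libraries of week 4 than in any of week 2, against 1.05% of all genes tested. They were Pgd, Taldo1, Hmox1, Blvrb, Gclm, Prdx6 and Sod1. Pgd had 23.9 to 38.8 CPM at week 4 and 39.1 to 59.4 CPM at week 2, and Hmox1 had 3.45 to 9.30 CPM at week 4 and 11.6 to 21.6 CPM at week 2. Neither arm alone gave a call between week 4 and week 2, with 0 of 32 members and 0% of genes in each by edgeR. Before adjustment, 6 members and 1325 genes of the MIR29B arm and 13 members and 1292 genes of the scrambled arm had a p under 0.05. DESeq2 called 0 members and 37 genes in the MIR29B arm, and 1 member and 38 genes in the scrambled arm. It gave no adjusted p to 5568 genes in the MIR29B arm and 8350 in the scrambled arm.

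MIR29B was set against scrambled control at each week. No member passed at any week, with 0 of 32 members and 0% of 11964 genes called at weeks 0, 2 and 4 by edgeR. Before adjustment, 4, 10 and 1 members had a p under 0.05 at weeks 0, 2 and 4, as did 850, 1177 and 313 genes. DESeq2 called 0, 1 and 0 members and 14, 78 and 0 genes. It gave no adjusted p to 2089, 6032 and 1 genes at weeks 0, 2 and 4, so its adjustment covered fewer genes. In data simulated on these libraries at week 2, the edgeR test recovered 11% of 200 genes changed by a fold of 2 and 92% of those changed by a fold of 4, so a change of about 2-fold would mostly go uncalled. The medians over the members were 0.32, -0.20 and -0.22 at the 3 weeks. The week 2 median became 0.68, with 21 of 32 members above 0 in place of 10, once scrambled 3 mg/kg week 2 replicate 1 was left out. With the slope of level on transcript length as a covariate the medians were 0.02, 0.19 and 0.05 at weeks 0, 2 and 4.

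The members nearest to a call were as follows. At week 2 Mgst1 had 3.72, 6.87 and 13.8 CPM with MIR29B (lowest, median and highest of 6), against 10.8, 16.7 and 30.5 CPM with scrambled. Of the 6 MIR29B libraries, 5 lay below all 6 scrambled ones. The log2 fold change was -1.27 (95% interval -2.02 to -0.52, edgeR adjusted p = 0.21), and it was called by DESeq2 at -1.26 (adjusted p = 0.0493) and by edgeR without the filter on low counts at -1.24 (adjusted p = 0.0344). Nfe2l2 had 2.80, 6.46 and 10.3 CPM with MIR29B, against 9.65, 12 and 16.6 CPM with scrambled, and again 5 of 6 lay below all scrambled libraries. Its log2 fold change was -0.94 (-1.52 to -0.35, edgeR adjusted p = 0.249). Prdx5 had 22.8, 53.4 and 73.8 CPM with MIR29B, against 56.7, 103 and 146 CPM with scrambled, at -1.03 (-1.69 to -0.36, edgeR adjusted p = 0.289). These 3 estimates moved little without the library that stood apart, to -1.28 for Mgst1, -0.92 for Nfe2l2 and -0.85 for Prdx5. The neutrophil markers were lower with MIR29B at week 2 too, 22 of 22 below 0 with a median of -0.80 and 0 called. They summed to 909, 1164 and 1965 CPM with MIR29B, against 1033, 2456 and 3431 CPM with scrambled. Monocyte and macrophage markers were below 0 for 18 of 18 (median -0.96) and summed to 471, 556 and 856 CPM with MIR29B, against 597, 825 and 2380 CPM with scrambled. Erythroid genes were above 0 for 17 of 20 (median 0.46) and summed to 134250, 138653 and 161405 CPM with MIR29B, against 73052, 99949 and 137783 CPM with scrambled. Over all libraries the erythroid sum was mostly Alas2. The part of these markers in the values of the 3 genes was not tested.

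At week 0 the arms already differed in estimate for some of the same genes. Gsr had 15.3, 23.9 and 39.1 CPM in the MIR29B arm (lowest, median and highest of 6), against 14.3, 48.6 and 95.3 CPM in the scrambled arm, at -0.96 (95% interval -1.59 to -0.33, edgeR adjusted p = 0.519). Mgst1 had 2.96, 3.99 and 7.19 CPM in the MIR29B arm, against 2.45, 7.63 and 17.7 CPM in the scrambled arm, at -1.02 (-1.77 to -0.27, edgeR adjusted p = 0.591). Slc7a11 had 0.286, 0.872 and 1.68 CPM in the MIR29B arm, against 0.609, 1.27 and 4.16 CPM in the scrambled arm, at -1.26 (-2.39 to -0.12, edgeR adjusted p = 0.691). Its counts summed to 92 in the MIR29B arm and 234 in the scrambled arm. The neutrophil sum at week 0 had medians of 416 CPM in the MIR29B arm and 790 CPM in the scrambled arm. At week 4 Hmox1 had 3.45, 7.58 and 9.30 CPM with MIR29B, against 3.65, 12.9 and 19.8 CPM with scrambled, at -0.82 (-1.59 to -0.05, edgeR adjusted p = 1). Keap1 at 0.56 (-0.10 to 1.22) and Txn1 at -0.65 (-1.44 to 0.14) followed, both with an edgeR adjusted p of 1. Srxn1 and Slc7a11, which hold a miR-29 seed match, stood at 0.03 and -1.19 at week 2 and at -0.16 and 0.38 at week 4. All groups overlapped for each member named in this and the preceding comparison of the arms.

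**Figure D5:**
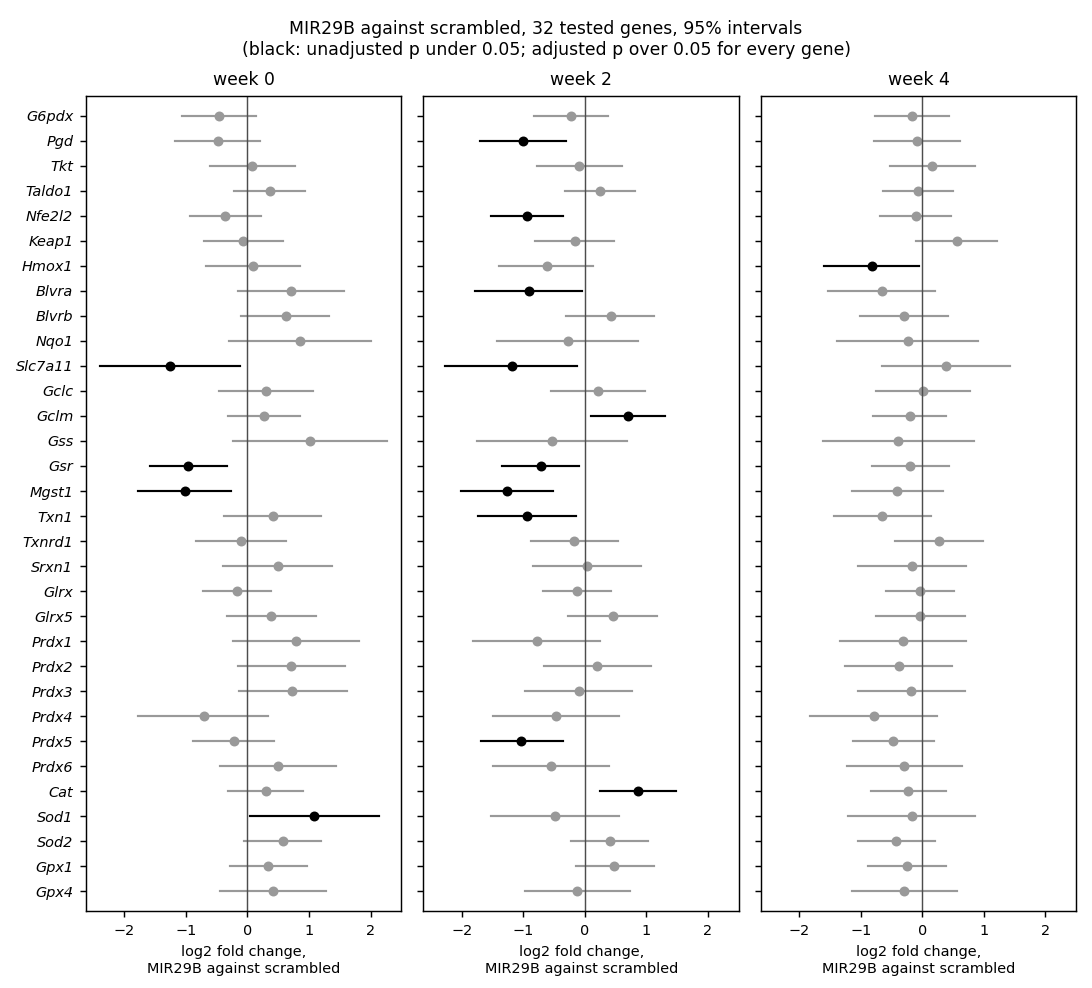
Log2 fold change of MIR29B against scrambled at weeks 0, 2 and 4 for 32 members, with 95% intervals. Black marks an unadjusted p under 0.05 (4, 10 and 1 members), and 0 members passed the adjusted threshold.

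The doses were compared within each arm over weeks 2 and 4. Between 3 and 2 mg/kg, 0 of 32 members and 0% of genes were called in either arm by edgeR, while 1 member and 256 genes of the MIR29B arm and 5 members and 649 genes of the scrambled arm had a p under 0.05 before adjustment. DESeq2 called 0 members in each, and 2 and 7 genes in the MIR29B and scrambled arms. Slc7a11 was the member of the MIR29B arm, at -1.28 ± 0.53 (SE, edgeR adjusted p = 1). In the scrambled arm Hmox1 had the smallest p, at 1.26 ± 0.38 (edgeR adjusted p = 0.823), and 28 of 32 members were above 0. Without scrambled 3 mg/kg week 2 replicate 1, 13 of 32 were above 0. MIR29B against scrambled within single doses called 0 of 32 members and 0% of genes at each week by edgeR. At week 2 the members at an unadjusted p under 0.05 numbered 9 at 3 mg/kg and 3 at 2 mg/kg, with 847 and 982 genes. DESeq2 called 0 members at each dose and week.

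Other genes of the same pathways were read from lists, whose counts at week 2 against week 0 can be set beside the same background of 8.73% higher and 7.22% lower. These lists, too, were chosen with earlier results of these data known, so the counts are descriptive. Of 14 other pentose phosphate and NADPH genes, 2 were higher and 1 lower. Pgls, the lactonase between G6pdx and Pgd, rose by 1.23 ± 0.30 (SE, edgeR adjusted p = 0.00483), Nadk, which makes NADP, rose by 0.62 ± 0.21 (adjusted p = 0.0381), and Rpe, an epimerase of the non-oxidative branch, fell by 0.91 ± 0.25 on the log2 scale (adjusted p = 0.0135). Of 21 other glutathione genes, 5 were higher and 1 lower. Slc3a2, the heavy chain that partners Slc7a11, rose by 1.09 ± 0.22 (edgeR adjusted p = 0.00119), Gsto1 by 0.74 ± 0.17 (adjusted p = 0.00265) and Gstp1 by 1.35 ± 0.34 (adjusted p = 0.00665). Of 16 other thioredoxin, glutaredoxin and methionine sulfoxide genes, 2 were higher, the methionine sulfoxide reductases Msrb1 (0.93 ± 0.23, edgeR adjusted p = 0.00485) and Msra (0.86 ± 0.24, adjusted p = 0.0118). Of 7 other superoxide and oxidant genes, 4 were higher and 0 lower. Among them were Cyba, a membrane subunit of the phagocyte NADPH oxidase (1.09 ± 0.25, edgeR adjusted p = 0.00288), and Rac2, a small GTPase of neutrophils (0.52 ± 0.15, adjusted p = 0.0195).

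Of 17 partners, regulators and relatives of NRF2, 4 were higher at week 2 and 0 lower, and the small MAF proteins, which pair with NRF2 on DNA, led them. Maff had 3.01, 5.62 and 12.9 CPM at week 2 (lowest, median and highest of 12), against 0, 0.413 and 1.48 CPM at week 0, and all 12 lay above the highest of week 0. Its log2 fold change was 3.93 ± 0.35 (SE, edgeR adjusted p = 7.21e-09), and 4.84 ± 0.36 (adjusted p = 3.42e-11) at week 4, where it had 2.86, 10.7 and 25.4 CPM. Mafk rose by 1.0 ± 0.20 at week 2 (edgeR adjusted p = 0.00068) and by 0.80 ± 0.20 at week 4 (adjusted p = 0.0103). Nfe2, the blood-cell relative of Nfe2l2, rose by 0.77 ± 0.19 at week 2 (edgeR adjusted p = 0.00538). At week 4, 4 of 17 were higher, against 4.23% of all genes. Among them were Maff, Mafk and Cul3 (0.55 ± 0.17, edgeR adjusted p = 0.0456), the scaffold of the ubiquitin ligase that works with KEAP1. Of 25 other NRF2 targets from the literature, 4 were higher and 1 lower at week 2, with Osgin1 (1.47 ± 0.32, edgeR adjusted p = 0.00191), Fth1, the ferritin heavy chain (1.14 ± 0.29, adjusted p = 0.00641) and Akr1a1 (0.74 ± 0.19, adjusted p = 0.00684) first among them. Cbr1 was the one that fell, by 0.71 ± 0.20 (edgeR adjusted p = 0.0155). At week 4, 2 of 25 were higher, against 4.23% of all genes. They were Sesn2 (1.70 ± 0.45, edgeR adjusted p = 0.0182) and Osgin1 (1.17 ± 0.32, adjusted p = 0.021).

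Sequence copies touch a few other members. Near-identical processed pseudogenes exist for Prdx1, Prdx2, Sod1, Txn1, Gpx4 and Me1, with an identity of at least 95% over at least 200 bases, and exons of Prdx2, Keap1 and Gclm overlap other genes on the opposite strand. How multiply mapped reads were counted is not given in the sources used here, so the levels of these members are uncertain to that extent.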

How the data were processed

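RNA was sequenced from 36 blood libraries. The authors deposited raw counts, not normalised, for 25856 RefSeq transcripts, and every count was even. Whether each fragment was counted as 2 was not tested; if so, printed counts and totals are 2 times the fragments and the count minimum is lower in fragments. Per the submitters' processing notes, HISAT2 2.0.5, featureCounts 1.5.0-p3 and GRCm38 were used; the annotation, strand setting and handling of mates are not given in the sources used here. Per the labels' protocols, RNA was extracted with TRIzol and depleted of globin mRNA with GLOBINclear. Transcripts were matched to symbols with a RefSeq table (25645) or GENCODE M21 (120), 91 had no symbol, and the highest-total transcript stood for each gene. Rows without a symbol held up to 10.07% of a library and annotated ribosomal RNA 0.39% to 5.07%; both stayed in the totals.

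Genes were kept with filterByExpr (minimum count 10, total 15), scaled by TMM, and fitted with edgeR 4.0.16 (R 4.3.3) over 12 groups, with two-sided quasi-likelihood F tests and Benjamini-Hochberg adjustment over all genes tested per comparison. Standard errors were derived from each log2 fold change and its F statistic. The common dispersion was 0.25, and intervals of 95% come from this fit. DESeq2 1.42.0, other scalings, no filter, a replicate block, sums over transcripts, a transcript-length covariate and left-out libraries were the alternatives. DESeq2 gave some genes no adjusted p, up to 8350 in a comparison, so its counts cover fewer genes than those of edgeR.

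The 33 members and the other lists were chosen with earlier results of these data known. Values are given for each member called in a comparison that averages arms or doses, for the 3 smallest p-values where none was called, and for up to 3 called genes of each other list; Cul3 and the seed-match and near-copy genes were named after their values were seen. Some results are not reported here. The replicate numbers are not stated to mark shared animals, and the check of them is in the closing section. No 2 libraries of a group agreed within sampling noise (lowest chi-square per gene 21.8). The code was tested on simulated counts: of 200 genes changed by a fold of 2 between week 2 and week 0, 62% were recovered. Intervals and detection limits cover counting error and the spread of these libraries only.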

Additional observations from a re-analysis of the deposited data

Results flagged for a closer look

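In sets of 6 libraries of 1 arm and week, a library was picked out where it lay far from the other 5 by Dixon's test at the 95% level. Of 192 sets over 32 members, 30 in 21 genes met it. A chance rate of about 1 in 20 holds for independent sets of normally distributed values. Here the values were not taken to logs, the doses were pooled and the sets share libraries. The 30 therefore cannot be compared with that rate. All values are CPM.

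Scrambled 3 mg/kg week 2 replicate 1 gave 14 of the 30, each as the highest of its set. It had 15517 for Prdx2 (787 to 3316 in the other 5), 1721 for Srxn1 (49.9 to 420), 1129 for Prdx1 (50 to 139), 974 for Gpx4 (72.0 to 297) and 891 for Sod1 (34.1 to 119). It had 710 for Prdx6 (21.9 to 71.6), 467 for Tkt (40.3 to 97.8), 331 for Pgd (31.5 to 102), 301 for Txn1 (34.9 to 115) and 272 for Gss (5.57 to 10.7). It had 206 for Prdx3 (16.5 to 81.9), 101 for Nqo1 (2.98 to 20.7), 42.9 for Gclc (2.13 to 11.2) and 5.11 for Blvra (1.38 to 2.55). This library also had the lowest slope of level on transcript length of the 36, at -0.604 (the others lay between -0.449 and 0.333), and whether that bears on these levels was not tested.

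MIR29B 2 mg/kg week 0 replicate 2 was highest of its set for Gclm (1627, against 624 to 957), Glrx5 (1461, against 264 to 685) and Gpx4 (642, against 76.9 to 273). Its length slope was -0.449. Scrambled 3 mg/kg week 4 replicate 2 was highest for Gpx1 (20154, against 9623 to 12009), Taldo1 (1165, against 710 to 841) and Glrx5 (984, against 423 to 604). MIR29B 2 mg/kg week 4 replicate 1 was highest for Slc7a11 (23.5, against 2.12 to 9.61) and Gsr (85.9, against 48.3 to 59.3) and lowest for Gclm (520, against 844 to 1037).

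The other 7 were single values. The highest were Gsr in MIR29B 3 mg/kg week 2 replicate 3 (75.9), Blvra in MIR29B 3 mg/kg week 4 replicate 3 (2.49), Mgst1 in MIR29B 3 mg/kg week 0 replicate 2 (7.19) and Tkt in scrambled 2 mg/kg week 0 replicate 3 (100). The lowest were Taldo1 in MIR29B 2 mg/kg week 4 replicate 3 (502), Gsr in scrambled 2 mg/kg week 4 replicate 3 (32.9) and Prdx3 in scrambled 3 mg/kg week 4 replicate 1 (20.1).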

How the results depend on the processing

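Under the settings other than leaving out single libraries, 214 of 250 counts of called members or genes lay within 1.5 times the reported count, and no member's called fold change turned its sign. The counts that moved are given by setting, members first, and the cause was not tested. With DESeq2, 1 member was called for MIR29B against scrambled at week 2, 7 members (630 genes) at week 4 against week 2, 10 members at week 2 in the scrambled arm, 1 at week 4 against week 2 in the scrambled arm, and 1110 genes at week 4 against week 0. Relative log expression factors, upper quartile factors and sums over transcripts each left 1 member at week 2 in the MIR29B arm, and upper quartile factors gave 2 at week 4 against week 2; upper quartile factors moved the median of all genes at week 4 against week 0 to -0.13. Without the filter on low counts, 1 member was called for MIR29B against scrambled at week 0, 1 at week 2 and 1 at week 2 at 3 mg/kg; 10 (716 genes) at week 4 against week 2; 5 at week 4 and 3 at week 4 against week 2 in the MIR29B arm; 13 at week 2 and 3 at week 4 against week 2 in the scrambled arm; and 1 between doses in the scrambled arm. With the slope of level on transcript length as a covariate, 5 members (1344 genes) were called at week 4 against week 0, 0 at week 4 against week 2 and 5 at week 2 in the MIR29B arm, and the members' median at week 2 was 0.20.

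Leaving out 1 library over 5% annotated ribosomal RNA gave 190 genes at week 4 against week 2 and 1 member at week 2 in the MIR29B arm. Leaving out both libraries that stood apart, chosen after seeing the data, gave 0 members (39 genes) at week 4 against week 2, 4 at week 2 and 1 at week 4 in the MIR29B arm, and 1 at week 2 in the scrambled arm. Leaving out 3 libraries where ribosomal RNA and rows without a symbol exceeded 5%, also chosen after seeing the data, gave 8 members (916 genes) at week 2 against week 0, 0 members (0 genes) at week 4 against week 2 and 0 at week 2 in the MIR29B arm.

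Leaving out each library in turn gave 9 to 13 members (1494 to 2518 genes) at week 2 against week 0, 2 to 3 (522 to 773 genes) at week 4 against week 0 and 0 to 8 (20 to 645 genes) at week 4 against week 2. In the MIR29B arm it gave 0 to 3 at week 2 and 1 to 2 at week 4. In the scrambled arm it gave 0 to 11 at week 2 and 0 to 1 at week 4 against week 2. It gave 0 elsewhere. Scrambled 3 mg/kg week 2 replicate 1 gave the 9, scrambled 3 mg/kg week 2 replicate 3 the 11 and the 8, and scrambled 3 mg/kg week 0 replicate 2 or scrambled 2 mg/kg week 2 replicate 3 the 0 of the scrambled arm.

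The labels do not say that a number marks a mouse, so the numbers were not taken as pairs. Over 198 pairs of the same number, the correlation of deviations ran from -0.54 to 0.47 with a median of 0.05 and 78 over 0.1. For 396 pairs of different numbers the median was -0.02, with 93 over 0.1. Both sets pool arms, doses and weeks, so the check cannot tell whether libraries of the same arm and dose share a mouse across weeks. With the replicate block, the 13 members at week 2 against week 0 kept their calls, and the block changed no call named above except Hmox1 at week 2 in the scrambled arm (edgeR adjusted p = 0.0525). The block is a term for the replicate number that all groups share, so it does not test pairing by mouse. Between the arms, the test at week 2 recovered 11% of simulated 2-fold and 92% of simulated 4-fold changes.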
